A study of Mus musculus with 4 samples.

Results

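The regions described here held a CTCF peak in proliferating MC3T3-E1 preosteoblasts (day 0) and in matrix-depositing cells (day 9), but none in mineralizing cells (day 28). They were chosen by the peak calls themselves: the 3 deposited lists were merged over chromosomes 1 to 19 wherever peaks overlapped by 1 bp or more, and each merged region with a day 0 peak, a day 9 peak and no day 28 peak was kept. Of 68920 merged regions, 2495 (3.62%, 95% Wilson interval 3.48 to 3.76) met this rule. They are called day 28-absent regions below, because the rule reads a list and not a level of binding. Another 36137 regions held a peak at all 3 stages. A peak was missing only from the day 9 list in 5118 regions and only from the day 0 list in 1040. Single lists held the remaining 21380 (day 0 alone), 863 (day 9 alone) and 1887 (day 28 alone).

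CTCF is a zinc-finger protein that binds DNA at a long, conserved motif, insulates promoters from enhancers, and halts cohesin so that chromatin loops end where it sits. In most cell types a large core of its sites is bound throughout, and the sites that vary with differentiation tend to be weaker ones. MC3T3-E1 is a mouse calvarial line that passes from division to deposition of a collagen matrix and then to its mineralization.

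Chromatin immunoprecipitation with an antibody to CTCF was followed by sequencing of 36 bases from inserts of 200 ± 50 bp. The cells were MC3T3-E1 subclone 4 (strain given as C57BL/6), a single subclone at passages 28 to 31, kept without ascorbic acid before differentiation. Differentiation medium contained beta-glycerophosphate at 10 mM with ascorbic acid at 280 µM, and chromatin was collected on day 0, day 9 and day 28. Per the labels there were 2 biological repeats at each stage, but 1 list per stage was used, and input DNA came from day 9 cells only. The lists therefore carry no replicate error, no test between stages was made, and all values are descriptions of 3 lists. Peak lists hold no expression values, so the labelled cell stages could not be checked against marker genes. No genome or gene annotation of build mm9 was used, so no sequence is shown and no region is assigned to a gene.

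On chromosomes 1 to 19 the lists held 65943 peaks at day 0, 41808 at day 9 and 44650 at day 28. Each peak carries a score, taken to be the caller's −10 log10 p-value, with a lowest value of 100.01, 100 and 100 in the 3 lists and saturation at 3100. Scores depend on read depth, which is unknown here, so they were compared within a list, as percentiles from 0 (lowest) to 100. The median peak was 556 bp wide at day 0, 528 bp at day 9 and 706 bp at day 28.

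The day 28-absent regions had middling scores at day 0 and scores near the floor of the day 9 list. Their median score was 326 at day 0 (quartiles 206 and 521) and 126 at day 9 (110 and 152). As percentiles, the medians were 37.5 of the day 0 list (25.1 and 48.6) and 10.1 of the day 9 list (4.51 and 17.4). With each list limited to 42774 peaks, a different set of 1880 regions met the rule. That limit leaves out day 0 peaks scoring under 314.5 and day 28 peaks scoring under 119.1. The day 0 median percentile of that set was 19.6, so the middling place at day 0 depends on the lists used. In the full lists, regions found at all stages had medians of 72.3 at day 0 and 56.1 at day 9. The position at day 0 lay above that of regions found at day 0 alone, whose median percentile was 20.1. At day 9 it was close to that of regions found at day 9 alone, at 9.18. Because a peak must pass the caller's limit to be listed, these scores are tied to the rule and describe the regions without testing anything.

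**Figure D1:**
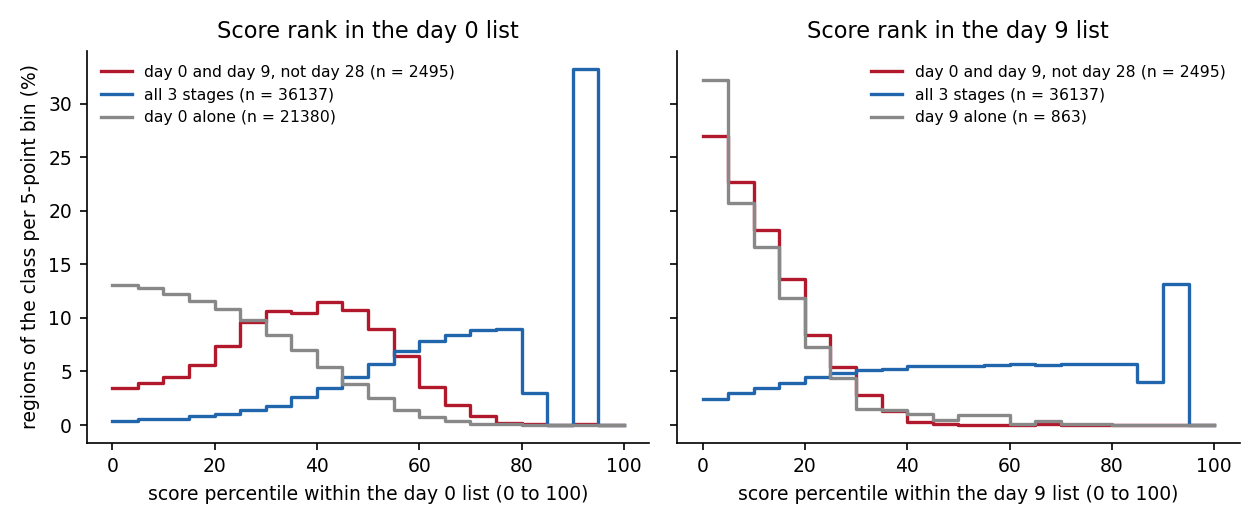
Distribution of score percentiles in the day 0 list (left) and the day 9 list (right) for day 28-absent regions (n = 2495), regions found at all 3 stages (n = 36137) and regions found at day 0 alone (n = 21380) or day 9 alone (n = 863). Lines give the percentage of each class per bin of 5 percentile points, and tied saturated peaks form the isolated column at 90 to 95. The day 28-absent regions stand between the other classes at day 0 and low in the list at day 9.

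A high score in both lists was not seen among them. A day 0 score of at least 500 was reached by 670 regions (26.9%), a day 9 score of at least 500 by 5, and a score of at least 500 on both days by 0. A score of at least 200 on both days was reached by 173 (6.93%). Within the class the order of the day 0 and day 9 scores was loosely related, with Spearman's rho of 0.15 across 2492 unsaturated regions, against 0.69 across 24083 regions found at all stages. Both values are across regions that share their libraries, and day 9 scores spread little among the day 28-absent regions.

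Of the 38632 regions with a day 0 and a day 9 peak, the day 28-absent regions were 6.46%. The share was lower the higher the day 9 score. It was 37.7% (36.2 to 39.2) in the lowest decile of day 9 scores, 18.3% (17.1 to 19.5) in decile 2, 6.89% (6.13 to 7.73) in decile 3 and 1.53% (1.19 to 1.965) in decile 4. The 3 lowest deciles, with day 9 scores of up to 254, held 97.3% of all day 28-absent regions. In the upper 5 deciles 3 of 19316 regions were absent at day 28 (0.0155%, 0.00528 to 0.0457). None of the 4768 regions with a saturated day 9 peak was absent; a count of 0 there is compatible with up to 0.0629% (3 counts). The intervals cover counting error only.

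**Figure D2:**
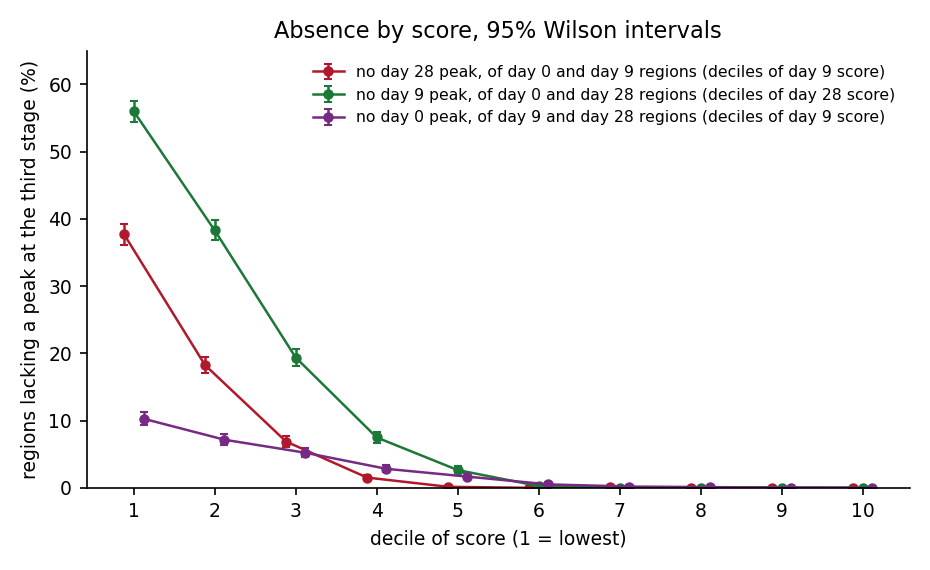
Percentage of regions that lack a peak at 1 stage, by decile of score among the regions found at the other 2 stages, with 95% Wilson intervals. The share without a day 28 peak is 37.7% in the lowest decile and 0.155% in decile 5, and the share without a day 9 peak lies above it in deciles 1 to 5.

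The day 0 score added to this. Among the regions of the lowest day 9 decile, the share without a day 28 peak was 51.0% (48.2 to 53.7) where the day 0 score was up to 271. It was 38.6% (36.0 to 41.3) at day 0 scores of 271 to 516 and 23.5% (21.3 to 25.9) above that. The median day 9 scores of these groups of equal size were close, at 113, 114 and 116. In decile 3 of day 9 scores the shares in groups of equal size, from low to high day 0 score, were 12.3%, 5.67% and 2.72%. Regions weak on both days were thus the ones most often without a day 28 peak.

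Absence from the day 28 list was not the most frequent kind of gap. Of the 41255 regions with a day 0 and a day 28 peak, 12.4% had no day 9 peak, and of the 37177 regions with a day 9 and a day 28 peak, 2.8% had no day 0 peak. The regions without a day 9 peak had almost the same day 0 percentile as the day 28-absent regions, with a median of 36.9 and quartiles of 23.7 and 48.3. Their day 28 percentile was 13.6 (6.28 and 22.8). The lists differ in length, so these shares are not rates of gain or loss.

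The caller numbers its peaks in genomic order, and numbers without a listed peak are taken to mark peaks called but absent from the list used here. In these lists only the rising order of the numbers was checked. In the day 28 list the numbers ran to 61794 and 16001 of them were unlisted. What left these peaks out, a score under the lowest one listed or another filter, is not given in the sources used here. The score and exact place of an unlisted peak are thus unknown, but it must lie in the space between the listed peaks on either side. Of 44631 such day 28 spaces, 25.4% held at least 1 unlisted number. Of the 2493 day 28-absent regions that lay between 2 listed day 28 peaks, 2167 (86.9%, 85.5 to 88.2) lay in a space with an unlisted number. For regions found at day 0 alone this was 64.6% (64.0 to 65.2), and for those found at day 9 alone 71.0% (67.9 to 73.9).

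These shares differed at every length of space. In spaces under 10 kb, an unlisted number was present in 80.1% (74.4 to 84.8) of the 226 that held a day 28-absent region. It was present in 44.4% (41.8 to 47.0) of the 1403 that held a day 0-alone region but no day 28-absent one, and in 3.61% (3.32 to 3.93) of the 14240 with no region lacking a day 28 peak. In spaces of 100 kb or more the shares were 87.9%, 59.1% and 21.4%. Where the space held a single region lacking a day 28 peak and was under 30 kb long, the share was 80.7% (77.1 to 83.9) for 514 day 28-absent regions and 43.0% (41.5 to 44.6) for 3703 day 0-alone regions.

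**Figure D3:**
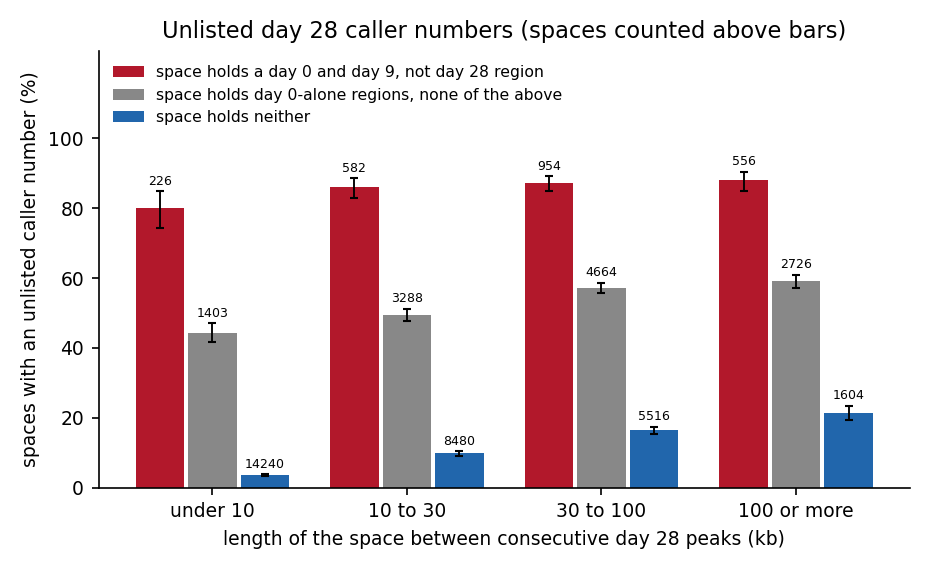
Percentage of spaces between consecutive listed day 28 peaks that hold at least 1 unlisted caller number, by length of the space and by what lies in it, with 95% Wilson intervals and the number of spaces above each bar. Spaces with a day 28-absent region stand at 80.1% to 87.9%, above the other kinds at each length.

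At 1 number per region, at most 2122 of the 2493 regions (85.1%) could match an unlisted day 28 call. Regions of other classes in the same spaces were not counted against these numbers, so this is an upper limit. The like limit was 45.7% for day 0-alone and 69.6% for day 9-alone regions. Against the list they lacked, it was 84.0% for regions without a day 9 peak and 73.8% for those without a day 0 peak. Whether a given call lay on a day 28-absent region itself, and how strong it was, cannot be read from the list. For 326 day 28-absent regions no number was unlisted between the flanking day 28 peaks, so on this reading no day 28 peak was called over them. Those 326 had median scores of 267 at day 0 and 124 at day 9, against 333 and 126 for the regions with an unlisted number, and 11 of them scored at least 200 on both days. Regions with higher day 9 scores lay beside an unlisted number at least as often: 85.5% (83.8 to 87.1) of those scoring 100 to 150, 90.2% (87.1 to 92.6) at 150 to 200, 91.6% (86.6 to 94.8) at 200 to 300 and 27 of 28 at 300 or more. The name of sites lost by mineralization therefore goes further than the lists do. The gap at day 9 looked alike in this respect: 86.6% (85.6 to 87.5) of the regions without a day 9 peak lay beside an unlisted day 9 number. For regions without a day 0 peak and day 0 numbers the share was lower, at 75.6% (72.9 to 78.1). An unlisted number was held by 32.2% of all day 9 spaces and 29.3% of all day 0 spaces.

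Membership also moved with the score minimum. With peaks scoring at least 200 kept in every list, 1154 regions had a day 0 and a day 9 peak and no day 28 peak. Of these, 981 (85.0%, 82.8 to 87.0) did have a listed day 28 peak of lower score, with a median of 157 (quartiles 135 and 181), and 173 had none. With a minimum of 500, chosen after seeing the data, 422 regions met the rule, and their weaker day 28 peaks had a median score of 415. That all 422 held one follows from the scores given above, since no day 28-absent region reached 500 on both days, and the 173 are likewise the regions that reached 200 on both days. These counts show how the rule acts on listed peaks and say nothing of the unlisted ones. Weak regions that were kept also scored low at day 28. In the 3 lowest day 9 deciles, 9162 regions had a day 28 peak, with a median score of 226 (155 and 344), against 662 over the whole day 28 list.

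Peak widths were close to those of kept regions at like day 9 scores. In the lowest day 9 decile their day 9 peaks had a median width of 397 bp (quartiles 327 and 473), against 398 bp (339 and 458) for regions found at all stages. In decile 3 the widths were 465 bp (365 and 559) and 447 bp (378 and 534). The day 0 peaks were slightly narrower, at a median of 478 bp (411 and 646) in the lowest day 9 decile, against 502 bp (422 and 681) for regions found at all stages. Day 0 scores were not matched there: their medians were 294 in day 28-absent regions and 444 in regions found at all stages. The centres of the day 0 and day 9 peaks lay a median of 36.5 bp apart in the day 28-absent regions of that decile and 37.5 bp apart in regions found at all stages. The peak thus recurred in place on the 2 days as closely as at sites that were kept. Day 0 gave more than 1 peak in 6 of the 2495 regions and day 9 in 3.

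The limit of the rule was sharp in position. The regions nearest to a day 28 peak without sharing a base with it lay on chromosome 10 at 127935555 to 127936096 (0 bp between them), chromosome 8 at 118230953 to 118231533 (1 bp) and chromosome 11 at 74644614 to 74646690 (1 bp). The smallest overlaps that kept a region out were 187 bp on chromosome 9 at 17792115 to 17792498, 196 bp on chromosome 5 at 121934698 to 121935079 and 203 bp on chromosome 14 at 104735909 to 104736421. A day 28 peak lay within 100 bp of 48 day 28-absent regions (1.92%) and within 1000 bp of 263 (10.5%). For day 0-alone regions these shares were 1.79% and 10.4%.

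The best-supported regions were ranked by the lower of their 2 percentiles. First was chromosome 17 at 7417239 to 7418077 (mm9, counted from 1), with a score of 490 at day 0 and 1241 at day 9. The closest day 28 peak was 31.4 kb away, and 3 numbers were unlisted in that space. Next was chromosome 4 at 118219511 to 118221506, with scores of 462 and 1216 on day 0 and day 9. No number was unlisted in the 137 kb between its flanking day 28 peaks, so on the reading above no day 28 peak was called there. Among the 10 regions of this ranking it was the only one of which this could be said. Both of its peaks were wide, at 1985 bp on day 0 and 1979 bp on day 9.

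The next 3 lay on chromosome 13 at 95612896 to 95613449 (day 0 score 972, day 9 score 419), chromosome 3 at 141120335 to 141120911 (1347 and 358) and chromosome 11 at 3022437 to 3038141 (370 and 2888). The last was also the widest of the class: its day 0 peak spanned 15705 bp and its day 9 peak 1793 bp. It lies near the start of the chromosome, before the first listed day 28 peak there. The input was not analysed, so whether its signal comes from CTCF was not tested. The other 5 scored 358 to 846 at day 0 and 317 to 500 at day 9. They lay on chromosome 3 at 105444997, chromosome 17 at 24681462, chromosome 6 at 117937099, chromosome 14 at 78910511 and chromosome 17 at 27193736. The region at 24681462 stood 10 bp from a day 28 peak. It would not be counted if a gap of that size were bridged.

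The highest day 9 scores belonged to 5 regions. Named above are those on chromosome 11 at 3022437, chromosome 17 at 7417239 and 24681462, and chromosome 4 at 118219511. The other lay on chromosome 7 at 52878856 to 52879277, with 155 at day 0 and 526 at day 9.

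The 5 highest day 0 scores went with day 9 scores of 141 to 274, above the class median of 126. Saturated day 0 peaks were seen in 3 day 28-absent regions, out of 12026 regions with a saturated day 0 peak and a day 9 peak. Chromosome 8 held the one at 24715909 to 24716388, with a day 9 score of 274. The others were on chromosome 14 at 37592012 to 37592730 (day 9 score 188) and on chromosome 11 at 92751198 to 92751834 (141). Chromosome 15 at 87019160 to 87019810 scored 3088 at day 0 and 185 at day 9, and chromosome 3 at 92724011 to 92724731 scored 3036 and 246. In these 5 the order was high at day 0, low in the day 9 list (percentiles of 14.8 to 35.3) and absent at day 28. Choosing high day 0 scores sets this order, since most of the class scored low at day 9. Each of the day 28 spaces of these 5 held 1 or 2 unlisted numbers. The other wide regions lay on chromosome 5 at 15132355 to 15137078 (4724 bp) and chromosome 15 at 75932767 to 75936499 (3733 bp), against a median of 509 bp for the class.

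Sites found at all stages lay about as close to the day 28-absent regions as to those of other classes. The median distance to the nearest region found at all stages was 11.04 kb (quartiles 3.72 and 27.3). It was 9.57 kb between regions found at all stages and 13.2 kb for those at day 0 alone. For regions without a day 9 peak it was 12.2 kb, and for those without a day 0 peak 11.2 kb. From a day 28-absent region to the nearest other one the median was 163 kb (52.4 and 403). With scores of at least 200 in every list, 1154 regions met the rule, 981 of them with a listed weaker day 28 peak. The median distance within that smaller and different set was 405 kb. Spacing went with class size: regions without a day 9 peak, 5118 in number, lay 94.4 kb apart and the 1040 without a day 0 peak 280 kb apart. A median of 25 other merged regions lay within 250 kb (16 and 38), against 24 around regions found at all stages (15 and 36). In order along the chromosomes, 2281 of the 2495 stood alone, 196 formed 98 pairs with no other merged region between them, and 18 formed 6 runs of 3. Such counts were not compared with those of other classes and depend on class size.

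The runs of 3 lay on chromosome 6 at 42637863 to 42660305, chromosome 7 at 4928418 to 4960237, chromosome 11 at 60033676 to 60038637, chromosome 12 at 56330776 to 56415314, chromosome 15 at 74630033 to 74710494 and chromosome 17 at 46339237 to 46388633. They spanned 4.96 kb on chromosome 11 and 22.4 to 84.5 kb on the other chromosomes. All of their day 9 scores were low. The run on chromosome 17 had the highest, with scores along the run of 439, 257 and 657 at day 0 and 177, 156 and 276 at day 9. The run on chromosome 11 scored 342, 151 and 505 at day 0 and 104, 120 and 174 at day 9.

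Neighbours of a day 28-absent region were somewhat more often absent themselves. Within 50 kb, 25.9% of the other weak day 0 and day 9 regions (the 3 lowest day 9 deciles, 2723 pairs) were day 28-absent, against 21.1% around weak regions found at all stages (9270 pairs). Within 1000 kb the shares were 23.9% and 21.8%. Without chromosome 17 they were 25.4% and 20.3% within 50 kb, and 22.5% and 20.9% within 1000 kb. The same region can be counted around several centres, so the pairs are not independent and no interval is given.

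The densest bins of 1 Mb lay on chromosome 17 at 27 to 28 Mb, with 13 of 80 day 0 and day 9 regions, chromosome 10 at 79 to 80 Mb, with 11 of 93, and chromosome 8 at 74 to 75 Mb, with 10 of 53. In the first, day 28-absent regions scored 121 to 716 at day 0 (median 272) and 100.2 to 317 at day 9 (median 134). Their shares of 16.3%, 11.8% and 18.9% stand beside 6.46% over all chromosomes. The bins were chosen for their counts, so high shares follow in part from the choice. They are not the highest shares: chromosome 11 at 79 to 80 Mb had 9 of 40 regions (22.5%). Of 2245 bins with a day 0 and day 9 region, 1175 held a day 28-absent region, and 82 held 5 or more.

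Chromosome 17 had the highest share. Of its 2012 day 0 and day 9 regions, 214 (10.6%, 9.36 to 12.1) were absent at day 28, against 6.23% (5.99 to 6.48) on the other chromosomes together. Chromosomes 14 (8.56%, 7.22 to 10.1) and 8 (8.01%, 6.95 to 9.23) followed. Chromosomes 3 (4.49%, 3.62 to 5.55), 19 (4.64%, 3.61 to 5.95) and 12 (4.65%, 3.68 to 5.85) had the lowest shares. Chromosomes also differed among weak regions, where the share was 32.4% (28.9 to 36.2) on chromosome 17, 20.3% (19.5 to 21.0) on the others together and 13.8% (11.2 to 16.9) on chromosome 3. Among all day 0 and day 9 regions of chromosome 17, the share per bin of 10 Mb was 10.6% to 13.01% from 0 to 60 Mb. From 60 to 90 Mb it was 6.45% to 8.72%, and the last bin held 2 of 14 regions.

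Chromosomes with more day 28-absent regions also ranked lower at day 28 at the sites they kept. This was read from 22972 regions with exactly 1 unsaturated peak in each list, each ranked at every stage over these same regions. On chromosome 17 the median day 28 minus day 9 difference of these sites was -6.87 percentile points, on chromosome 14 it was -3.92 and on chromosome 8 it was -3.44. On chromosome 3 it was 3.09 and on chromosome 19 it was 6.99. Over 19 chromosomes, the share of weak regions absent at day 28 and this median had Pearson's r of -0.87 and Spearman's rho of -0.79. Without chromosomes 14 and 17, the farthest from the median share, the values were -0.74 and -0.70. Conversely, the share of day 0 and day 28 regions without a day 9 peak was lowest on chromosome 17 (7.37%, 6.29 to 8.62) and highest on chromosome 19 (17.2%, 15.3 to 19.2). All chromosomes come from the same 3 libraries, so these values describe those libraries.

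**Figure D4:**
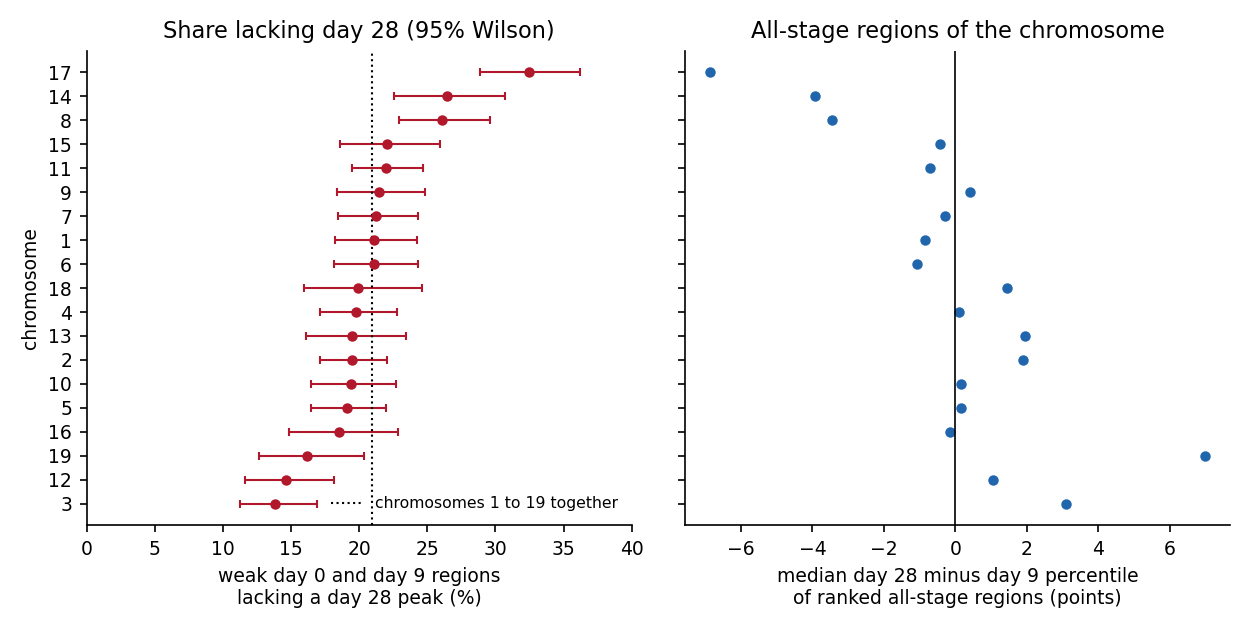
Left, percentage of weak day 0 and day 9 regions (the 3 lowest deciles of day 9 score) that lack a day 28 peak on each chromosome, with 95% Wilson intervals and a dotted line at 20.9% for all together. Right, median day 28 minus day 9 percentile of ranked regions found at all stages on the same chromosome. Chromosome 17 has the highest share (32.4%) and the lowest median (-6.87 points).

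Rank shifts were also read close to the regions themselves. For each day 28-absent region the nearest ranked region found at all stages was taken, and each such neighbour was counted once. At any distance their median day 28 minus day 9 difference was -1.98 percentile points. It was -3.28 beside the 1154 regions that met the rule with scores of at least 200, of which 981 had a listed weaker day 28 peak. For the 803 neighbours within 10 kb of a day 28-absent region in the full lists, the median was -3.58 percentile points (95% interval -4.88 to -2.19). Of these, 59.7% (56.2 to 63.0) stood lower at day 28, against 50.6% of all ranked regions. At 10 to 50 kb the median was -1.91 (-3.08 to -0.72) and at 50 kb or more -0.13 (-1.45 to 1.58). Without chromosome 17 the median within 10 kb was -2.55 (-4.22 to -1.34). The day 9 minus day 0 difference of the same neighbours within 10 kb had a median of 0.25 (-1.35 to 1.55).

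Neighbours of other classes gave a scale for this. Within 10 kb the median was -3.84 (-6.78 to -1.59) beside regions found at day 9 alone, -1.05 (-1.55 to -0.57) beside those at day 0 alone and 0.88 (-0.01 to 1.47) beside those at day 0 and day 28. Quartiles of -13.1 and 6.50 points among the neighbours of day 28-absent regions within 10 kb show that single sites varied far more than these medians. The interval near day 28-absent regions overlapped that near the other regions last seen at day 9.

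**Figure D5:**
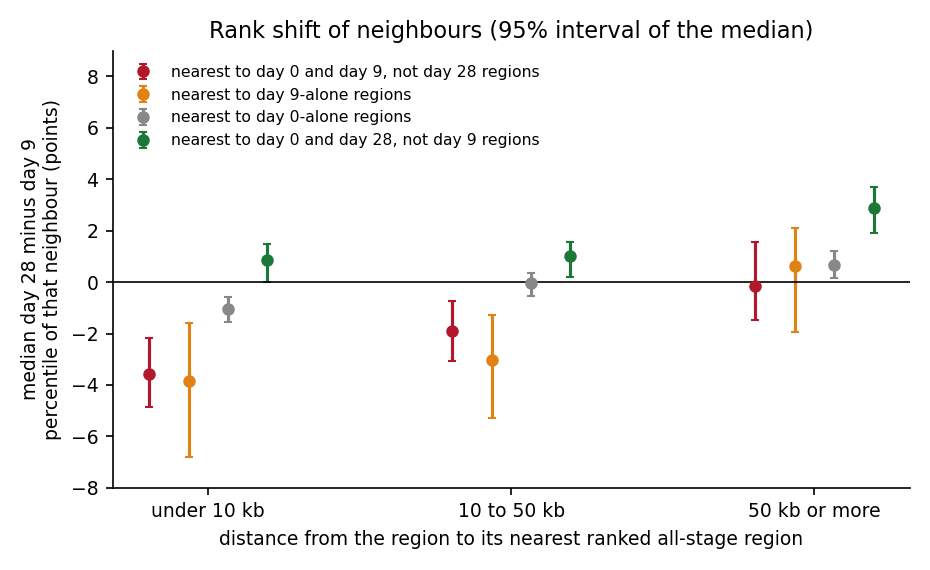
Median day 28 minus day 9 percentile of the nearest ranked region found at all stages, by its distance from regions of 4 classes, with the 95% order-statistic interval of the median. Neighbours of day 28-absent regions stand at -3.58 points within 10 kb and at -0.13 points at 50 kb or more. The medians of the other classes also stand higher at 50 kb or more than within 10 kb.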

How the data were processed

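CTCF ChIP-seq peak lists of day 0, day 9 and day 28 were used, 1 list per stage. The submitters' processing notes name MACS 1.4.1, Bowtie 0.12.8, CASAVA 1.6 and build mm9; how the repeats and the input entered a list is not given in the sources used here. The deposited score of each peak is taken to be MACS's −10 log10 p-value, set to 3100 where higher, and no read counts were used, so depth is unknown. Peaks of chromosomes 1 to 19 were merged with pandas 2.3.3 and NumPy 2.4.6. Percentiles are mid-ranks within a list. A region's score is that of its highest peak. The left-out caller numbers were counted between consecutive listed peaks, after a check that numbers run in genomic order, and may include rows absent from the files used here. The merge and the numbering were tested on simulated lists. Shares carry 95% Wilson intervals and medians order-statistic intervals.

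The regions, lists and measures were chosen with earlier results of these data known. The regions named are the 10 with the highest lower percentile, the 5 highest at day 9 and at day 0, the 3 widest, the longest runs, the 3 fullest bins, and those nearest the limit of the rule. No gene, motif or sequence was examined, because no mm9 genome or annotation was used.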

Additional observations from a re-analysis of the deposited data

How the results depend on the processing

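Of 8 results, 7 were recomputed under 5 settings, the unlisted caller numbers under 3, and 2 also under a score minimum of 500 chosen after seeing the data. Of the 40 values, 21 stayed within the interval of the value reported or, for the number of regions, within 1.5 times of it. Only the neighbour shift could have changed sign, and it stayed negative under each setting. An overlap of 50% of the shorter peak moved none. With every list limited to its top 42774 peaks by score, 1880 regions met the rule, 5.41% of day 0 and day 9 regions. Their median percentiles were 12.3 at day 9 and 19.6 at day 0. Chromosome 17 had 7.58%, and the distance to the nearest other region of that set was 226 kb. This setting removes day 0 peaks scoring under 314.5 and day 28 peaks scoring under 119.1. With scores of at least 200 there were 1154 regions (3.95%), with percentiles of 7.75 at day 9 and 40.1 at day 0, 7.84% on chromosome 17, a neighbour shift at any distance of -3.28 points (-1.98 in the full lists) and a distance of 405 kb. With scores of at least 500 there were 422 regions (2.08%). With no day 28 peak within 1000 bp the share was 5.78%, that of chromosome 17 was 9.29% and the distance 197 kb. Without chromosome 17 the highest share was 8.56%, on chromosome 14, and the distance 175 kb. The unlisted numbers were not recomputed for shortened lists, because shortening itself leaves numbers unlisted. No paired analysis was possible because each stage had 1 list. Depth is unknown, and for the regions beside an unlisted day 28 number a gap cannot be told apart from a called peak left out of the list.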
